A study of Mus musculus with 12 samples.

Results

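Hind paw biopsies of mice were compared between 3 libraries with a high share and 3 libraries with a low share of reads on Ttn, the gene of the sarcomere protein titin. These 6 libraries are all the hind paw libraries among 12 of the series, and the other 6 are whole dorsal root ganglia (DRG). The 2 groups were chosen by the measured Ttn share (Ttn reads divided by all reads counted on genes), not by a label, and are called Ttn-high and Ttn-low here. The Ttn-high libraries were hind paw male 2, female 3 and male 3, and the Ttn-low libraries were female 1, female 2 and male 1. All mice were C57BL/6J without a transgene or an allele named in the labels, 3 females and 3 males per tissue. The labels give an age from 8 to 14 weeks and an injection of 20 µl saline into the paw for each library, whereas by the study's methods the mice were naïve, aged 8 to 12 weeks, and the females were in the estrous phase. By the methods, a punch biopsy took epidermis, dermis and some of the fat under them and left muscle untouched. Because the groups come from a measured value, every difference between Ttn-high and Ttn-low is a description, with no test, p-value or standard error.

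Skeletal muscle contracts by sliding actin past myosin in sarcomeres, and titin spans the sarcomere as a molecular spring. Skeletal muscle fibres differ in their myosin heavy chain, with slow fibres using Myh7 and fast fibres using Myh2, Myh1 or Myh4, and the neuromuscular junction is set up by nicotinic receptor subunits, MuSK and rapsyn. Skin holds a basal and a differentiating layer of keratinocytes, hair follicles that grow in cycles, sebaceous glands, fibroblasts, vessels, fat and resident immune cells, and the footpad has sweat glands and a keratin of its own, Krt9. In bulk tissue, fewer cells of a type and less RNA per cell cannot be told apart.

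Hind paw male 2 stood apart from the other libraries before any comparison. It had 6866545 reads counted on genes, against 10678598 to 13470783 in the other hind paw libraries, and 55.5% of its listed reads were not uniquely aligned, against 42.1% to 43.2%. Reads counted on Lars2, the gene of a mitochondrial leucyl-tRNA synthetase, were at 14187, 24.1, 249, 69.8, 23.7 and 34.3 CPM (the usual count scaled to library size, here with median-of-ratios factors) in male 2, female 3, male 3, female 1, female 2 and male 1. Mir5109 was at 2202, 0.278, 21.3, 3.71, 0.833 and 1.61 CPM. Both genes were chosen after their values were seen, and whether these reads come from transcripts of the 2 genes was not tested. All later series of 6 values keep this order, from the highest to the lowest Ttn share. The groups also differ in sex, with 2 males and 1 female in Ttn-high and 1 male and 2 females in Ttn-low. Sex and Ttn share can therefore be told apart only in part, and the difference within females (female 3 minus the mean of females 1 and 2) and within males (the mean of males 2 and 3 minus male 1) is given beside the lists where it matters most.

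Ttn took 5.79%, 4.43%, 4.26%, 2.79%, 1.16% and 1.15% of gene reads. The highest share was 5.02 times the lowest. As a share of all listed reads, Ttn was at 0.788%, 1.09%, 1.08%, 0.683%, 0.277% and 0.288%, so male 2 was then the third and lay near female 1. Male 3, just inside the Ttn-high group, had a 95% Wilson interval of 4.25% to 4.27%, and female 1, just outside it, one of 2.78% to 2.80%; the intervals cover counting error only. Female 1 lay between the other 2 Ttn-low libraries and the Ttn-high group. Acta1, the skeletal muscle actin, took 0.241%, 0.203%, 0.236%, 0.143%, 0.0512% and 0.0620%. Ckm, the muscle creatine kinase, took 0.0840%, 0.0646%, 0.0728%, 0.0522%, 0.0198% and 0.0245%. Ranking the libraries by Acta1, by Ckm, by the sarcomere genes other than Ttn, or by the Ttn share of all listed reads put the same 3 libraries highest each time. Ttn lies at chr2:76542037-76820604 on the minus strand of mm9. Whole DRG libraries had Ttn shares from 0.0146% to 0.457%.

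**Figure D1:**
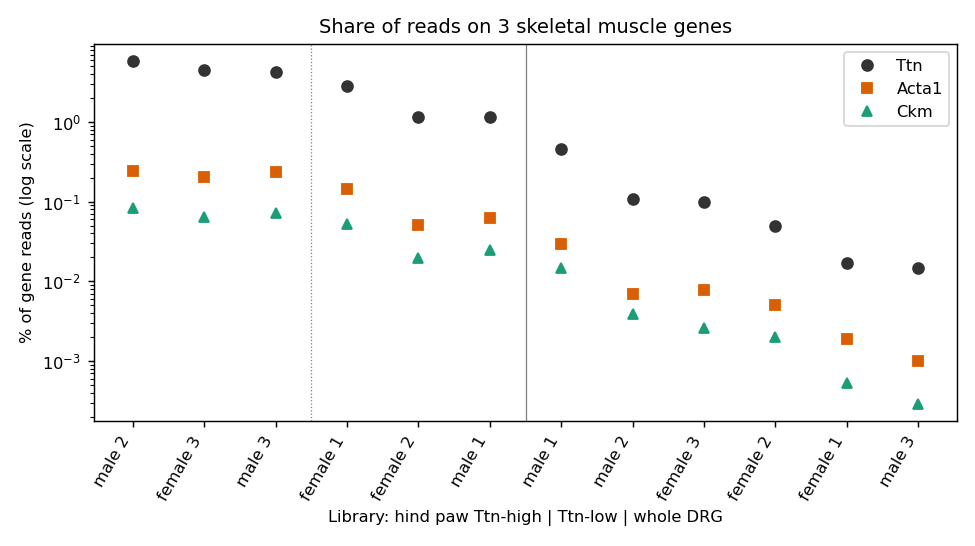
Share of gene reads on Ttn, Acta1 and Ckm (y axis, percent, log scale) in each library (x axis), with hind paw libraries ordered by the Ttn share and DRG libraries to the right of the solid line. The 3 genes keep nearly the same spacing in every hind paw library, and DRG male 1 at 0.457% Ttn lies above the other DRG libraries.

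A gene was tested where 3 or more hind paw libraries had 10 counts or more. Of 14316 such genes, 1491 (10.4%) were higher in every Ttn-high than in every Ttn-low library and 1204 (8.41%) were lower in every one. With a difference of mean log2(CPM + 0.5) of at least 1 as well, 272 genes (1.9%) were higher and 3 (0.021%) lower. A gene that meets both conditions is named as called from here on, and counts in each list are read against these shares. The median difference over all tested genes was −0.01. Of the 272 genes called higher, 46 were in the 3 muscle lists and 217 were in none of the 27 lists described here. The muscle lists are not complete, so called genes outside them include further genes of striated muscle, such as Ankrd1 and Csrp3. The 3 genes called lower were Tpsb2, a mast cell tryptase, and Epyc and Pou2f2, which had means of 1.64 and 1.43 CPM and were named after their values were seen. With a pseudocount of 2 in place of 0.5 none of the 3 was called, at −0.92, −0.57 and −0.56. With plain CPM, without scaling factors, 803 genes were higher and 2313 lower in every Ttn-high library, so 25.8% of the genes without overlap were higher, against 55.3% with the factors. Without male 2, 253 genes were called higher and 3 lower, and 15, 9, 6, 8 and 26 were called lower without male 1, male 3, female 1, female 2 and female 3.

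**Figure D2:**
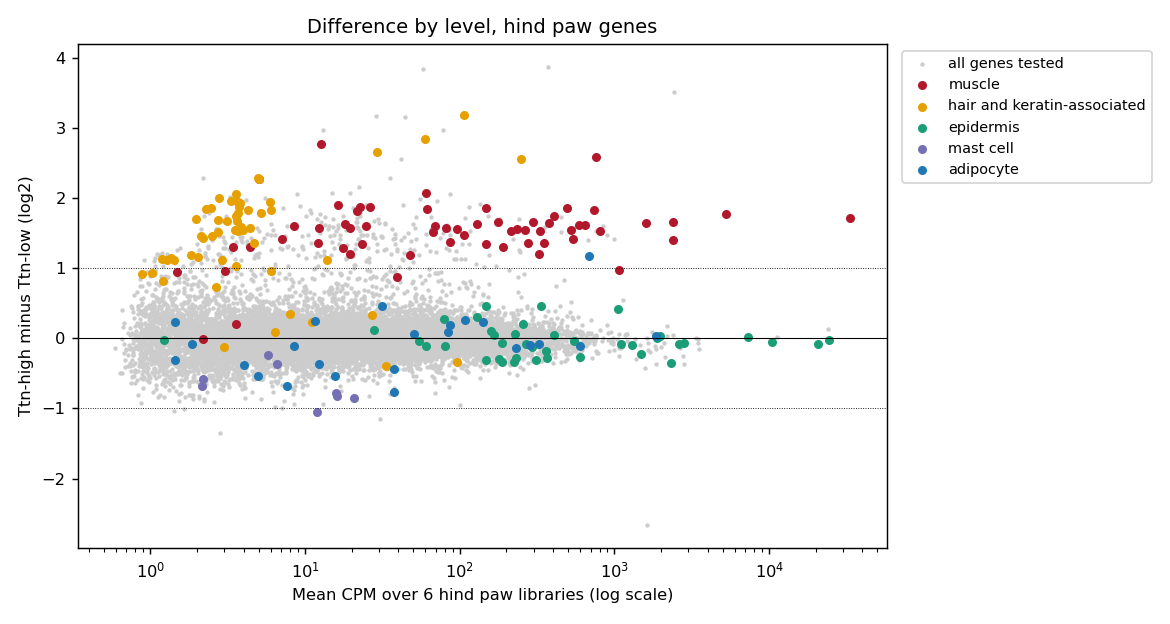
Difference of mean log2(CPM + 0.5) between Ttn-high and Ttn-low libraries (y axis) by mean CPM over the 6 hind paw libraries (x axis, log scale), 1 point per gene tested, with dotted lines at the limit of 1. Muscle genes pool 3 lists, with medians of 1.61 (sarcomere), 1.47 (calcium and metabolism) and 1.63 (myogenic and junction), and lie mostly above 1. Epidermal genes lie near 0, and hair and keratin-associated genes spread widely, mostly above 0.

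The groups were chosen by Ttn alone, but the other sarcomere genes count as part of their definition, and the list is given as a description. All 30 of its genes were measured and had a higher mean in Ttn-high libraries, 21 without overlap (10.4% of all genes). The median difference was 1.61. Summed over the list, the level was 93771, 65492, 66225, 42136, 16655 and 16960.0 CPM. Neb, the nebulin that sets thin filament length, was at 9676, 7305, 6748, 4475, 1708 and 1538 CPM. Xirp2, which binds actin at the junctions of muscle fibres, was at 1031, 497, 745, 401, 148 and 135 CPM. The 9 sarcomere genes whose groups overlapped were Myh4, Myh7, Myl2, Myl3, Tnnt1, Tnni1, Mybpc2, Ldb3 and Myom2. Per length, Acta1 had the highest mean level of the list, 1101 RPKM (CPM per kilobase of exon), beside 376 for Myh1, 286 for Ttn and 199 for Neb.

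Most genes of muscle calcium handling and metabolism were higher as well. Of 20 genes, 17 were called higher (1.9% of all genes), with a median difference of 1.47 and sums of 9777, 7561, 7075, 5217, 2072 and 2357 CPM. Atp2a1, the calcium pump of fast fibres, was the most abundant at 4037, 3233, 2907, 2183, 896 and 1041 CPM. Ryr1, the calcium release channel, was at 1482, 1079, 1004, 675, 289.6 and 335 CPM. Myoglobin (Mb) was at 924, 731, 639, 469, 193 and 192 CPM. In each of these genes all 3 Ttn-high libraries lay above all 3 Ttn-low libraries, with female 1 the highest of the Ttn-low group. The 3 genes not called were Sln (0.95), Pgam2 (1.19) and Fbp2, whose groups overlapped. Fbp2, the muscle fructose bisphosphatase, had a difference of −0.01 that crossed 0 between left-out libraries (−0.20 to 0.33).

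The fibre type genes did not keep a fixed ratio. Per length, Myh1 held 54.9, 62.3, 57.9, 43.8, 62.8 and 58.9 percent of the summed level of Myh1, Myh2, Myh3, Myh4, Myh7 and Myh8. Myh4, of the fastest fibres, held 25.2, 21.1, 19.6, 43.7, 24.1 and 33.4 percent. Myh2 held 19.1, 14.0, 21.6, 8.59, 11.1 and 7.31 percent and was thus higher in each Ttn-high than in each Ttn-low library. The slow Myh7 held 0.621, 2.33, 0.705, 3.71, 1.88 and 0.192 percent, with the males below all of the females. The embryonic Myh3 and perinatal Myh8 each stayed under 0.16% in the 6 libraries. For each 1000 Ttn reads, Myh7 had 1.03, 3.71, 1.24, 7.33, 3.41 and 0.341 reads and the slow regulatory light chain Myl2 had 0.246, 0.575, 0.194, 1.85, 0.588 and 0.0193. Both were highest in female 1 and lowest in male 1.

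Several genes differed more between the groups than Ttn did, and 44 genes without overlap had a difference above that of Ttn, 1.72. Among the largest differences of genes without overlap, of at least 5 mean CPM and outside the muscle lists, were those of Ankrd1 (3.84), Ankrd2 (3.15), Igfn1 (2.97), Myoz2 (2.16), Fbxo40 (2.08), Csrp3 (2.07), Lmod2 (1.96), Ankrd23 (1.91) and Myl6b (1.90). These too are known as genes of striated muscle. Ankrd1, a titin-binding repeat protein induced by mechanical load, was at 103, 189, 33.9, 10.6, 8.25 and 1.83 CPM. Ankrd2, a stretch-responsive relative of Ankrd1, was at 73.1, 114, 46.9, 22.4, 6.17 and 3.23 CPM. For each 1000 Ttn reads, Ankrd1 had 1.62, 4.32, 0.778, 0.392, 0.746 and 0.161 reads, so the ratio of the highest to the lowest library was 26.8. By comparison, Acta1 had 41.7, 45.9, 55.5, 51.1, 44.1 and 53.8 and Neb 153, 167, 155, 165, 154 and 135. Female 3 was the highest library for Ankrd1 and Ankrd2 on both scales.

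**Figure D3:**
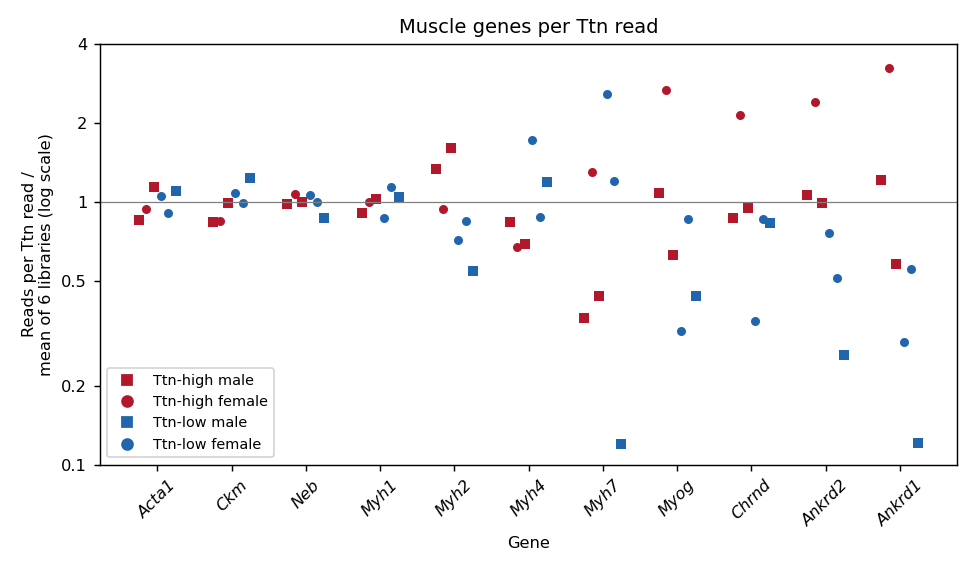
Reads of 11 muscle genes per Ttn read, divided by the mean of the 6 hind paw libraries (y axis, log scale); squares are male and circles female libraries, red Ttn-high and blue Ttn-low. Acta1, Ckm, Neb and Myh1 stay close to 1, while Myog, Ankrd2 and Ankrd1 are highest in female 3 and Myh7 in female 1.

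Genes of myogenic factors and the neuromuscular junction were mostly higher in Ttn-high libraries. Of 13 genes, 11 passed the filter on low counts (Myf5 and Chrng did not). Of these, 9 were higher without overlap (10.4% of all genes) and 8 were called higher (1.9%). The median difference was 1.63, with sums of 197, 228, 151, 74.5, 47.2 and 38.8 CPM. Myog, the transcription factor myogenin of muscle differentiation, was at 22.1, 37.8, 8.86, 2.83, 3.08 and 1.61 CPM. Chrnd, the delta subunit of the nicotinic receptor, was at 7.65, 13.0, 5.74, 1.33, 1.33 and 1.32 CPM. Female 3 was the highest library for both, and the female 3 value of Myog was also the highest per Ttn read. Chrng, the receptor subunit of fetal and denervated muscle, had 3, 29, 9, 0, 0 and 1 reads, so that most of its reads came from female 3. The 0 counts of females 1 and 2 allow shares of up to 2.74e-05% and 2.63e-05% of gene reads. Pax7, the factor of muscle stem cells, was at 3.50, 4.72, 3.36, 3.36, 4.08 and 2.49 CPM and its groups overlapped, with a difference of 0.20.

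Promoters are shown for 4 genes called higher, Myog, Chrna1 (alpha subunit), Chrnb1 (beta subunit) and Ankrd1, because the promoters of genes that are high in the same libraries can be compared. Each is the 250 bases before the start given by RefSeq for GRCm38.p6, a later build than the mm9 of the counts, read 5′ to 3′ on the gene's strand. Capitals mark the E-box letters CANNTG, which read the same on both strands and which myogenic factors are known to bind in some forms.
Myog (chr1:134289754-134290003, plus strand): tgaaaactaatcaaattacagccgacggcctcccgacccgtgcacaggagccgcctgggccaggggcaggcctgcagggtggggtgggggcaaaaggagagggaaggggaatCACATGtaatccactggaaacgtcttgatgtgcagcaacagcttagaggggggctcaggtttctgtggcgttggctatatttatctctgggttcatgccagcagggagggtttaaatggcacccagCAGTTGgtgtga
Chrna1 (chr2:73580339-73580588, minus strand): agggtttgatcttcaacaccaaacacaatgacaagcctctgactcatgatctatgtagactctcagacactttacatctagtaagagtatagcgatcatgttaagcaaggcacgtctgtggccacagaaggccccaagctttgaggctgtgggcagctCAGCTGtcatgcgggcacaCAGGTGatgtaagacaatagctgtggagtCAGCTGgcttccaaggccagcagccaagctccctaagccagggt
Chrnb1 (chr11:69795938-69796187, minus strand): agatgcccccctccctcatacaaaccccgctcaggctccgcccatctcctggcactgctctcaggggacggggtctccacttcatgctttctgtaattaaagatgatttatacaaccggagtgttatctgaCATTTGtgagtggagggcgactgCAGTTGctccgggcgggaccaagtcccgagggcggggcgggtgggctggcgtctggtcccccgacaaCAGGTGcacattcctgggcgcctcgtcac
Ankrd1 (chr19:36119845-36120094, minus strand): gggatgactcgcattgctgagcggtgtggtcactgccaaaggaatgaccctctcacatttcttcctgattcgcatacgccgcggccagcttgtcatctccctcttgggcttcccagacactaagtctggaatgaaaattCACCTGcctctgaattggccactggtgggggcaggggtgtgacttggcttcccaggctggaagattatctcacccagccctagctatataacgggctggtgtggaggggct
Myog held 2, Chrna1 3, Chrnb1 3 and Ankrd1 1 such match, and 2 of those in Chrna1 were the form CAGCTG. Of 32851 promoters of this length, 66.2% held CANNTG and 13% held CAGCTG. Of the 12823 promoters matched to tested genes, 58.4% held CANNTG and 12.5% held CAGCTG. Of the 272 genes called higher, 189 were matched by symbol with 258 promoters, of which 76.7% held CANNTG and 26.4% held CAGCTG; genes with several starts count more than once. These matches are a description. Chrnd and Tpsb2 were not matched.

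Hair genes varied strongly between the libraries, but mostly not in the order of the Ttn share. Of 29 hair follicle and shaft genes, 27 were tested, 2 were called higher (1.9% of all genes) and 2 were lower without overlap (8.41%), and the median difference was 1.55, with 0.90 within females, 1.001 within males, 1.25 without male 2 and 0.75 without female 2. The summed level was 1406, 409, 1133, 479.9, 196 and 617 CPM. Males 2 and 3 were the highest, followed by male 1, and female 2 was the lowest. Tchh, the trichohyalin of the inner root sheath and the most abundant gene of the list, was at 627, 114, 453, 133, 6.67 and 169 CPM. Krt71, an inner root sheath keratin, was at 227, 50.3, 205, 65.3, 0 and 95.1 CPM. Its count of 0 in female 2 allows up to 2.63e-05% of gene reads. In both genes female 3, a Ttn-high library, lay below Ttn-low male 1, so the groups overlapped. The 2 called genes were the hair cortex keratins Krt81, at 7.96, 3.52, 5.99, 1.59, 0 and 2.42 CPM, and Krt85, at 5.89, 1.85, 5.08, 1.59, 0.333 and 1.54 CPM. Female 2 was the lowest for both, and without it the difference of Krt81 was 1.29 in place of 2.06. With a pseudocount of 2, Krt85 was at 0.95 and was not called. Dlx3 and Foxn1, factors of the follicle and of differentiating epidermis, were the 2 lower genes, with differences of −0.34 and −0.39, a share of the list near that of all genes.

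Keratin-associated proteins, which cross-link keratin in the hair shaft, followed the hair genes. Of 51 genes, 28 were tested, and 3 were higher without overlap, near the 10.4% of all genes. Krtap1-3 and Krtap24-1 were called higher, 2 of 28 against 1.9% of all genes. The sums were 185, 41.4, 148, 32.0, 6.08 and 76.8 CPM, a ratio of 30.5 between male 2 and female 2. Krtap3-1, the most abundant, was at 13.7, 2.41, 10.3, 1.86, 0 and 7.84 CPM. All 28 tested genes had a higher mean in Ttn-high libraries, with a median difference of 1.51, 0.90 within females, 0.97 within males and 0.85 without female 2. Krtap1-3 was not called without female 2 (0.95) or with a pseudocount of 2 (0.98). Sebaceous gland genes had a median difference of 0.39, with 0.10 without female 1, 0.15 without female 3 and 0.20 without male 3. Of 7 genes, 1 (Mc5r) was higher without overlap (10.4% of all genes). The sebaceous sums were 189, 251, 316, 152, 204 and 218 CPM, with male 3 highest and Far2 the most abundant gene. The part of hair in the other differences between the groups was not tested.

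None of 40 tested epidermal genes in 3 lists was called, which is near the 1.9% called higher and 0.021% called lower among all genes. Basal epidermal genes had a median difference of −0.05 (−0.09 without female 1 to 0.00487 without female 2), and Krt5, the basal keratin, was at 1929, 2065, 1987, 1677, 2072 and 2145 CPM. Their sums were 7652, 8012, 7374, 6761, 7927 and 7678 CPM, a ratio of 1.19 between the highest and lowest library. Differentiated epidermal genes, led by Krt10, had a median of −0.09 (−0.17 without female 1 to −0.06 without female 2), with −0.26 within females and −0.26 within males. Their sums were 83517, 58626, 78480.0, 67663, 75395 and 84580.0 CPM. Of 23 genes, 18 were lower on average and 4 were lower without overlap (8.41% of all genes), namely the cross-linking enzyme Tgm1, the lipoxygenase Aloxe3 and the cornified envelope genes Lce1b and Lce1c, with differences of −0.27, −0.33, −0.30 and −0.34. Krt9, the keratin of the footpad and the most abundant of 5 glabrous and reactive keratins, was at 2610.0, 1840.1, 1564, 2757, 3329 and 1713 CPM, highest in female 2. The sums of these 5 genes were 3534, 2446, 2255, 3306, 4050.0 and 2438 CPM and their median difference was 0.06, or −0.16 without male 2, −0.10 without female 1, 0.18 without female 3 and −0.04 with plain CPM. Sweat gland genes had a median of −0.04 that ran from −0.35 without female 2 to 0.14 without male 1, and sums of 591, 429, 557, 527, 456 and 657 CPM. Of 10 sweat gland genes, Aqp5, the water channel of secretory cells, and Chrm3, a muscarinic receptor, were lower without overlap (8.41% of all genes). Aqp5 was at 86.0, 64.4, 86.8, 88.0, 93.3 and 119 CPM, and Slc12a2 was the most abundant gene of the list.

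**Figure D4:**
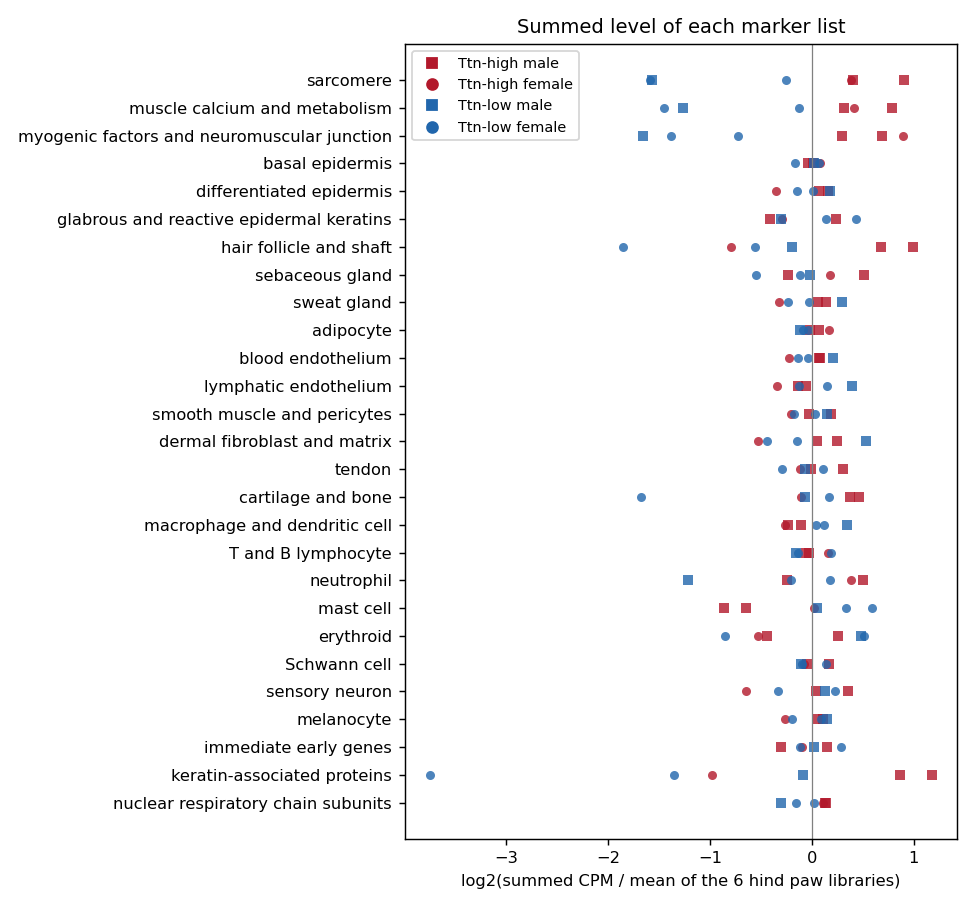
Summed CPM of each of 27 marker lists in each hind paw library, relative to the mean of the 6 libraries (x axis, log2); squares are male and circles female, red Ttn-high and blue Ttn-low. The muscle lists separate the groups, the mast cell list is lowest in males 2 and 3, and the hair lists are highest in males 2 and 3 and lowest in female 2.

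Of 24 adipocyte genes tested, 1 was higher and 4 were lower without overlap, against 10.4% and 8.41% of all genes. The higher gene, Car3, carbonic anhydrase 3, was the only one called, and it is known to be abundant in skeletal muscle as well as fat. Car3 was at 1165, 821, 795, 655, 256 and 395 CPM. Its difference was 1.17, and it was not called without female 2 (0.84) or without male 2 (just under the limit). Cfd (the adipocyte protease adipsin), Cidec (a lipid droplet protein), Adipoq (the hormone adiponectin) and Lipe (hormone-sensitive lipase) were lower without overlap. Adipoq was at 13.9, 8.79, 16.1, 16.3, 21.0 and 18.3 CPM, Cidec at 7.81, 2.96, 7.30, 9.37, 9.50 and 8.72 CPM and Cfd at 32.2, 15.6, 38.5, 45.2, 40.3 and 54.0 CPM. Female 3 was the lowest library for all of these 4 genes. The difference was −0.54 for Adipoq and −0.77 for Cfd, −1.03 and −1.42 within females, and −0.28 and −0.61 within males. Without female 3 the differences were −0.29 and −0.39. Over the list the median was −0.09 (−0.13 without female 1 to −0.01 without male 2) and the sums were 4561, 5213, 4841, 4502, 4357 and 4277 CPM, and 14 of 24 genes were lower on average. Each Ttn-high sum was above each Ttn-low sum, but without Car3 the sums were 3396, 4392, 4047, 3847, 4102 and 3882 CPM, with male 2 the lowest, and the groups overlapped. The most abundant gene, the desaturase Scd1, which sebaceous glands also make, was at 1421, 2396, 1868, 1822, 1993 and 1637 CPM.

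No vessel gene was called, which is near the shares of all genes (1.9% called higher and 0.021% lower). Blood endothelial genes had a median of −0.10 (−0.19 without male 3 to −0.00310 without female 3) and sums of 692, 563, 697, 641, 597 and 757 CPM. Of these 20 genes, 1 (Eng, endoglin) was lower without overlap (8.41% of all genes). Ptprb was the most abundant of them, and Pecam1, an adhesion protein of all endothelium, was at 92.2, 81.5, 87.9, 78.8, 83.1 and 92.7 CPM. Lymphatic genes had a median of −0.22 (−0.29 without female 1 to −0.14 without male 1) and sums of 145, 126, 153, 177, 146 and 209.9 CPM. Lyve1, the hyaluronan receptor of lymphatic vessels and some macrophages, was the most abundant, at 39.7, 31.0, 48.7, 70.9, 41.5 and 74.1 CPM. Of 6 tested, Mmrn1 was lower and Pdpn higher without overlap (8.41% and 10.4% of all genes), with differences of −0.58 and 0.48. Ccl21a had no count in the hind paw. Mmrn1 was at 21.2, 13.8, 20.4, 22.1, 24.2 and 38.6 CPM and Pdpn at 20.5, 25.5, 19.8, 17.1, 17.7 and 12.2 CPM. In both genes male 1 lay furthest from the Ttn-high libraries. Of 16 smooth muscle and pericyte genes, 2 were higher and 2 lower without overlap, near the shares of all genes (10.4% and 8.41%). Synpo2 and Abcc9, which skeletal muscle also expresses, were higher, with differences of 0.78 and 0.78, and Notch3 and Mcam were lower, with −0.28 and −0.16. Notch3 was at 181, 188, 192, 212, 211 and 264 CPM, with male 1 far above the other Ttn-low libraries. Acta2, the smooth muscle actin and the most abundant of the list, was at 266, 196, 225, 261, 237 and 315 CPM. The list sums were 1888, 1439.9, 1621, 1689, 1469 and 1831 CPM, with a median difference of −0.15 (−0.23 without male 2 to −0.07 without female 3).

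Fibroblast and matrix genes had a median of −0.17, −0.25 within females and −0.38 within males. With 1 library left out the median ran from −0.31 without female 2 to −0.06 without male 1. Of 20 genes, 5 (Lum, Dpt, Pi16, Dpp4 and Cd34) were lower without overlap (8.41% of all genes) and none was called. Pi16, of a fibroblast population around vessels, had the largest difference, −0.95, with 65.0, 87.3, 53.9, 144, 117 and 132 CPM. The sums were 14951, 10009, 17147, 13042, 10702 and 20983 CPM and the most abundant gene was the collagen Col3a1. Male 1 was highest for 7 of 8 collagens of the list (Col6a3 was the exception), for example Col1a1 at 2568, 1246, 3277, 1775, 1285 and 4111 CPM. Tendon genes had a median of 0.23, with −0.01 within females, 0.32 within males, 0.05 without male 2 and 0.11 without female 2, and sums of 1224, 911, 981, 1062, 804 and 944 CPM, led by Thbs4. Of 8 tendon genes, 2 were called higher (1.9% of all genes), Chad, a matrix protein of cartilage and tendon, and Scx, the tendon transcription factor. Chad was at 52.4, 38.7, 34.0, 29.9, 3.67 and 26.9 CPM and Scx at 5.42, 6.57, 5.17, 2.21, 2.17 and 1.10 CPM. Of 8 cartilage and bone genes, 2 were tested, and Col9a1 was called higher (1.9% of all genes) at 6.21, 4.35, 4.26, 3.45, 1.17 and 0.660 CPM. The most abundant of them, Acan, was at 5.42, 3.05, 6.64, 5.66, 1.17 and 7.40 CPM and the list sums were 12.4, 8.42, 11.7, 10.2, 2.83 and 8.65 CPM, with a median difference of 0.87 (0.47 without female 2). Matn1 had no count in the hind paw. Female 2 was the lowest library for Chad and Acan, and without it Chad had a difference of 0.52 in place of 1.46. With a pseudocount of 2, Col9a1 was at 0.94 and was not called.

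Of 10 mast cell genes, 8 were tested and each had a lower mean in Ttn-high libraries, 4 without overlap (8.41% of all genes) and 1, Tpsb2, called (0.021%). The median difference was −0.73. Hdc, which makes histamine, had a difference of −0.24 but of 0.11 within females and 0.22 within males. Tpsb2, at chr17:25503486-25505804 of mm9, was at 6.37, 11.0, 5.90, 16.4, 15.3 and 16.3 CPM. Mcpt4, a chymase of connective tissue mast cells and the most abundant of the list, was at 11.2, 19.8, 13.0, 26.3, 32.5 and 21.0 CPM. Cma1, another chymase, was at 8.28, 15.3, 11.2, 22.3, 22.1 and 15.4 CPM. The list sums were 45.4, 83.5, 52.5, 104, 124 and 85.0 CPM. Males 2 and 3 were lowest, and Ttn-high female 3 lay just below Ttn-low male 1. The median was −0.44 within females, −0.47 within males and −0.60 without male 2. Tpsb2 had a difference of −1.05 and was not called without male 2 (−0.94), when 0 mast cell genes were called, or male 3 (−0.89). Tpsb2 and its close relative Tpsab1 may share reads, so their split is uncertain.

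**Figure D5:**
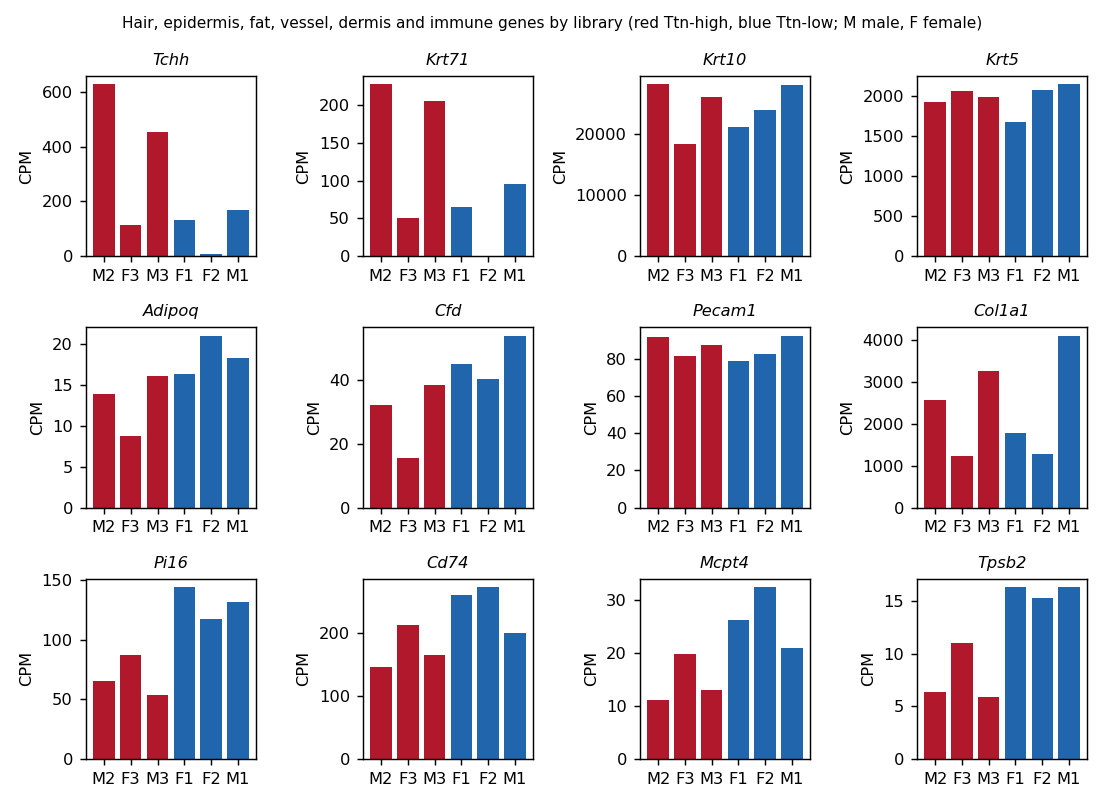
CPM (y axis) of 12 skin, hair, fat, vessel, dermal and immune genes in the 6 hind paw libraries (x axis, ordered by the Ttn share; red Ttn-high, blue Ttn-low, M male, F female). Pi16, Mcpt4 and Tpsb2 are lower in each red than in each blue bar, Krt5 and Pecam1 are nearly level, and Tchh and Krt71 are highest in males 2 and 3.

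Macrophage and dendritic cell genes had a median difference of −0.36, and 15 of 16 had a lower mean in Ttn-high libraries, although none was free of overlap. The sums were 975, 953, 1065, 1241, 1176 and 1458 CPM, so each Ttn-high library lay below each Ttn-low library. Cd74, the invariant chain of antigen presentation and the most abundant gene, was at 146, 212, 164, 259, 272 and 199.97 CPM. The median was −0.34 within females, −0.57 within males, −0.37 without male 2, −0.13 without male 1 and −0.19 without female 3. Among genes outside the lists, Clec10a, a lectin of macrophages and dendritic cells, and H2-DMa, which loads peptides onto class II molecules, were lower without overlap, with differences of −0.93 and −0.77. The other genes of the 10 without overlap and at least 5 mean CPM that were lowest relative to Ttn-low libraries were Pi16, Trpv6 (−0.89), Mcpt4, Adamts15 (−0.83), Cma1, Cfd, Mfap4 (−0.75) and Tpsb2. Clec10a was at 4.94, 5.09, 7.05, 9.64, 11.3 and 12.8 CPM.

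Lymphocyte and neutrophil genes were scarce. Of 17 T and B lymphocyte genes, 5 were tested, and 1 was lower without overlap (8.41% of all genes). This was the most abundant, Cd5, at 1.12, 1.94, 2.13, 2.74, 3.08 and 2.57 CPM. The lymphocyte sums were 10.8, 12.3, 10.6, 12.6, 10.1 and 9.90 CPM, with a median of −0.08 (−0.24 without female 3 to 0.12 without female 1). Of 11 neutrophil genes in the data, 4 were tested, with a median of 0.26 (−0.11 without male 1 to 0.52 without female 2) and sums of 56.7, 52.3, 33.9, 34.7, 45.4 and 17.3 CPM. S100a8, a calcium-binding protein of neutrophils and stressed keratinocytes, was called higher (1.9% of all genes) at 24.2, 24.1, 15.7, 9.28, 12.8 and 3.88 CPM. The receptors Csf3r and Cxcr2 overlapped, with differences of −0.53 and −0.18. S100a9, the partner of S100a8, was at 19.6, 10.2, 7.13, 9.20, 12.6 and 2.49 CPM. Its groups overlapped too, with a difference of 0.70, −0.08 within females and 2.05 within males. Without male 1, S100a8 had a difference of 0.91 in place of 1.37 and was not called. Of 8 erythroid genes, 2 were tested and the 4 globin genes Hba-a1, Hba-a2, Hbb-b1 and Hbb-b2 had no count in the hind paw. These globin genes have close copies and reads that align to several places were not counted, so their count does not show that they were absent. The erythroid sums were 5.58, 3.24, 3.44, 6.63, 2.58 and 6.52 CPM, with Alas2, of heme synthesis, the most abundant, and the median of 0.02 ran from −0.35 to 0.23 with 1 library left out.

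No nerve, pigment or immediate early gene was called, again near the 1.9% called higher and 0.021% lower among all genes. Schwann cell genes, led by Pmp22, had a median of 0.09 (−0.02 without male 2 to 0.19 without female 3) and sums of 626, 526, 537, 615, 519.6 and 516 CPM, with 2 of 10, Egr2 and Cdh19, higher without overlap (10.4% of all genes). Sensory neuron genes, led by Tubb3, had a median of 0.03 over 6 tested of 12, with −0.67 within females, 0.41 within males and a range of −0.36 without male 2 to 0.41 without male 3. Their sums were 46.5, 23.3, 37.5, 42.7, 29.1 and 39.8 CPM. Melanocyte genes, led by Mitf, had sums of 35.0, 27.0, 34.0, 34.7, 28.4 and 36.1 CPM and a median of −0.35, with 2 of 4 tested genes, Dct and Pmel, lower without overlap (8.41% of all genes). Immediate early genes had a median of −0.11 (−0.21 without female 3 to −0.02 without female 1), with 11 of 12 lower on average. Dusp1, a phosphatase that ends MAP kinase signalling, was the most abundant and the single gene lower without overlap (8.41% of all genes). The list sums were 2064, 1741, 1510.1, 2274, 1719.5 and 1894 CPM. Respiratory chain genes encoded in the nucleus, which muscle fibres need for ATP, were often higher in Ttn-high libraries. Of 81 tested, 34 were higher and 3 lower without overlap, against 10.4% and 8.41% of all genes, the median was 0.27 (0.14 without male 1 to 0.39 without female 1), and Cox7b2, Cox8c and Ndufs5 had no count. The 3 called higher were Cox6a2, Cox7a1 and Cox8b, the muscle forms that the muscle metabolism list also holds. Atp5b, the most abundant, was at 674, 619, 636, 587, 511 and 469 CPM, and the list sums were 5016, 4898, 4967, 4625, 4098 and 3691 CPM.

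Sex, the labelled comparison of these 6 libraries, was tested with edgeR's quasi-likelihood test. It called 11 genes higher in females (0.0768% of 14316) and 11 higher in males (0.0768%) at a Benjamini-Hochberg adjusted p below 0.05, and these p-values measure the spread between samples. The calls held Xist and the Y genes Ddx3y, Eif2s3y, Kdm5d and Uty, which match the labelled sexes. Of all list genes, 1 passed, Rptn, the repetin of the cornified envelope, at 457, 153, 587, 205, 176 and 433 CPM. Its log2 difference of females from males was −1.47 (SE 0.15, edgeR adjusted p = 0.0151), and all 3 males lay above all 3 females. No muscle gene passed, and Ttn differed by −0.53 (SE 0.64, edgeR adjusted p = 0.871). All 27 hair genes had a lower estimate in females, with a median of −1.88, and none passed by edgeR. All 28 keratin-associated genes also had a lower estimate in females, with a median of −2.57, and none passed by edgeR. The study, which used DESeq, reports many keratin and keratin-associated genes as higher in male hind paws. It ties the male genes past its adjusted p limit to keratinocyte functions. Calls by DESeq2 within these 2 lists are not given here. For Tchh the estimate was −2.29 (SE 0.89, edgeR adjusted p = 0.445). All 8 mast cell genes had a higher estimate in females, with a median of 0.76, and none passed. With the log2 Ttn share as a covariate beside sex, 136 genes were higher in females and 225 in males. Without male 2, 1 gene was called higher in females and 0 in males by edgeR, with 1211 genes at an unadjusted p below 0.05, and DESeq2 called 85 and 123 with all 6 libraries. The counts were 5 and 3 without male 1, 3 and 1 without male 3, 4 and 4 without female 1, 2 and 4 without female 2 and 3 and 5 without female 3.

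Hind paw and DRG were compared over all 12 libraries with sex in the model to check the tissue against its markers. Of 15666 genes, 6670 (42.6%) were higher in the hind paw and 6736 (43%) in DRG by edgeR at an adjusted p below 0.05. All 23 genes of the differentiated epidermis were higher in the hind paw, and all 12 sensory neuron and all 10 Schwann cell genes were higher in DRG. Krt10 differed by 10.14 (SE 0.33, edgeR adjusted p = 1.09e-12) on the log2 scale. Of 30 sarcomere genes, 29 were higher in the hind paw, and Ttn differed by 4.99 (SE 0.82, edgeR adjusted p = 5.67e-05). Of the 272 genes called higher in Ttn-high libraries, 188 were also higher in the hind paw than in DRG.

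DRG libraries took no part in the choice of groups, and they too varied in most muscle reads. The sarcomere list took 0.732% of gene reads in DRG male 1, 0.179% in male 2, 0.156% in female 3, 0.0865% in female 2, 0.0320% in female 1 and 0.0273% in male 3. DRG male 1 thus had the highest share, and it did so for calcium handling and metabolism genes (0.132% against 0.0289% to 0.0504%). Myogenic and junction genes were nearly level, from 0.00175% to 0.00227%, with female 2 the highest.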

How the data were processed

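RNA of hind paw biopsies and whole DRG was sequenced in 12 libraries, with about 500 ng of RNA each. The labels name a kit that removes ribosomal RNA and paired reads of 100 bp, whereas the methods name oligo-dT priming and shorter single reads. The authors aligned reads to mm9 with TopHat2 and deposited raw counts per gene from HTSeq; bcl2fastq and DESeq are also named in the submitters' processing notes, and versions and the strand setting are not given in the sources used here. The 5 HTSeq categories of uncounted reads stayed out of library sizes. Between 13.6% and 28.1% of listed reads were counted on genes. Libraries of the same group differed by more than counting noise, and nothing states that they share an animal or a batch.

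The members and lists were chosen with earlier results of these data known. CPM used median-of-ratios (RLE) factors over genes where 3 or more libraries had 10 counts or more, and differences used a pseudocount of 0.5. A gene was called where the groups did not overlap and the log2 difference was at least 1. Sex (6 hind paw libraries) and tissue (12 libraries, with sex) were tested with edgeR 4.0.16 in R 4.3.3 and DESeq2 1.42.0 as an alternative, after a check on simulated data. Named genes were Ttn, Acta1 and Ckm, up to 4 genes of the highest mean CPM per list, the 10 largest differences per direction without overlap among genes of at least 5 mean CPM outside the muscle lists, and list genes past a test; further genes were named after their values were seen. Exon lengths and positions came from GENCODE vM1, which matched 21627 of 22609 symbols, and RPKM is scaled CPM per kilobase of merged exons. Symbols without a match have no RPKM. Alternatives were other ranking genes, scalings, filters, fold limits and pseudocounts, and leaving out each library. Python 3.11.15, pandas 2.3.3 and SciPy 1.17.1 were used.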

Additional observations from a re-analysis of the deposited data

Results flagged for a closer look

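Single libraries were set against the other 5 of the same tissue by the gap to the nearest value over the whole range, for 39 measures, of which 5 passed the 95% limit. Chance marks about 1 in 20 of such measures. Hind paw male 2 was far from the others in the share of listed reads counted on genes, 13.6% against 23.8% to 25.4%, and in the share not uniquely aligned, 55.5% against 42.1% to 43.2%. DRG male 1 was far above the other DRG libraries in Ttn, at 0.457% of gene reads against 0.109% in the next, in Acta1, at 0.0296%, and in Ckm, at 0.0148%. These 3 muscle genes move together, so they do not count as separate observations. No list sum of a hind paw library was marked.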

How the results depend on the processing

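The 3 libraries of highest Ttn share, and with them all counts, were the same under each other ranking and with all listed reads as denominator. Plain CPM gave 5 genes called lower and 803 higher and 2313 lower without overlap, with a median difference over all genes of −0.10. A log2 limit of 0.58 gave 462 called higher and 96 lower, no limit gave 1491 and 1204, and a pseudocount of 2 gave 0 called lower. Leaving out 1 library gave 227 to 405 called higher, 3 to 26 called lower, 2088 to 2276 higher and 1818 to 2129 lower without overlap; fewer libraries overlap less by construction. The sex counts (females, males) were 85 and 123 by DESeq2, 18 and 22 without the filter, 136 and 225 with the Ttn covariate, 34 and 54 with all 12 libraries in 1 fit, and 1 to 5 and 0 to 5 with 1 library left out. With the replicate block they were 3 and 5; deviations of same-numbered females and males correlated at −0.06, −0.44 and 0.34, and the labels state no pairing. The causes of these differences were not tested. Tissue counts stayed within 1.5 times in each alternative. Of the values of single genes and lists under all alternatives, 13471 stayed on their side of a test's threshold or, with no test, moved by less than the spread between libraries, 129 no longer passed a test and 24 moved by more than that spread. Of called values, 0 changed sign, whereas list medians near 0 did where the report says so. Depth limits genes under 10 counts, among them Chrng and most lymphocyte genes.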
